A study of Mus musculus with 6 samples.

Results

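The Dlk1-Dio3 cluster is an imprinted stretch of mouse chromosome 12 whose genes are switched on or off according to the parent that transmitted them. The 6 genes described here are Dlk1, Meg3, Rtl1, Rian, Mirg and Dio3, and they were found in the deposited table by symbol among 21837 genes. They cover 12 of its 27794 transcript rows, and for each gene the RefSeq row with the highest mean over all libraries was used. Beside them stand the 60 rows of small RNAs (58 miRNA hairpins and 2 snoRNAs) that lie between Dlk1 and Dio3. The genes were proposed with their levels in these same libraries in view, so the levels are a description.

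The cells were primary mouse embryonic fibroblasts (MEFs) of a C57BL/6x 129 background, taken from wildtype littermates at embryonic day 13.5 and passaged 4 times. PolyA-selected RNA was sequenced from untreated MEFs and from MEFs given TNFα, a pro-inflammatory cytokine, at 20 ng/mL for 1.5, 6 or 24 hr, with 1 library per time. The promoter mark H3K4me3 was mapped before treatment only, from 1 ChIP library set against 1 library of input chromatin. The label of the 24 hr RNA library carries a chromatin protocol in its extraction field, while its other labels are those of RNA-seq. Values are RPKM on the scale of the deposited table, which is larger than the usual one, and are given as the mean of the R1 and R2 columns of a library. These columns are not replicates, so no difference could be tested and all ratios compare single libraries.

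From the paternal chromosome the cluster expresses the proteins Dlk1, Rtl1 and Dio3, and from the maternal chromosome it expresses noncoding RNAs. Dlk1 is a transmembrane relative of the Notch ligands that holds back the differentiation of fat cell precursors. Rtl1 is a retrotransposon-derived protein needed in the placenta, and Dio3 is the deiodinase that inactivates thyroid hormone. Meg3, Rian and Mirg are noncoding RNAs read in the same direction. Rian is the host of snoRNAs, and Mirg and the stretch around it are the source of a large family of miRNAs. A differentially methylated region ahead of Meg3 controls which parental copy is read.

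The Meg3 promoter is shown because it was the only promoter of a member with an H3K4me3 peak. The RefSeq promoter window of 300 bases (250 before to 50 after the start) matched mm9 once, on the plus strand at chr12:110778956-110779255. Capitals mark CCAAT at position -100, TGACGTCA (the cAMP response element) at -57, and a pair of overlapping TATAAA matches on opposite strands at -29 and -25.

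Meg3 promoter: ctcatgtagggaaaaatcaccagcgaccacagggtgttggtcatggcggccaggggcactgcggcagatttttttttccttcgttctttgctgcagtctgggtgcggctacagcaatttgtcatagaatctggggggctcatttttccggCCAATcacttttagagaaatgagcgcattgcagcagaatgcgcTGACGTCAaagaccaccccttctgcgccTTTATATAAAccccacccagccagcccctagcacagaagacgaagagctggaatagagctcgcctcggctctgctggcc

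Both strands were searched, and over the 32851 promoter windows of the RefSeq table (GRCm38) TGACGTCA was found in 1.79%, TATAAA in 13.6% and CCAAT in 37.4%. The kappaB consensus, the site of NF-κB, was found in 8.46% of windows and was not found in the Meg3 window. Among the members it was found in the Dio3 window alone, at -243 and -59. The table holds no window for Rtl1. The Meg3 window had a GC content of 53.7% and 13 CG dinucleotides, against medians of 52.7% and 7 over all windows. A further Meg3 window, at chr12:110783358-110783657, had 50.3% GC, 1 CG dinucleotide and none of the motifs searched. It lies after the end of the H3K4me3 peak described below. Among the 5 members with a window, that of Dio3 was the richest, with 69.0% GC and 25 CG dinucleotides, and the Rian window had 49.3% and 0.

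The miRNA rows with the highest mean level were Mir1906-1, Mir3070a, Mir433 and Mir3070b, and their mature sequences are shown with the seed, bases 2 to 8, in capitals. Mir127 and Mir370 were added after their values were seen, since the first lies opposite Rtl1 and the second in an intron of Rian.

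mmu-miR-1906: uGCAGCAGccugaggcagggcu

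mmu-miR-3070-5p: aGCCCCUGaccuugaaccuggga

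mmu-miR-3070-3p: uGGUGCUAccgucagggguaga

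mmu-miR-3070-2-3p: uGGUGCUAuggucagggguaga

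mmu-miR-433-5p: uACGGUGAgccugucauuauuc

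mmu-miR-433-3p: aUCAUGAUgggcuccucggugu

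mmu-miR-127-5p: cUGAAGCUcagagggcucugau

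mmu-miR-127-3p: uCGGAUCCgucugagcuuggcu

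mmu-miR-370-5p: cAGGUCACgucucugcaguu

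mmu-miR-370-3p: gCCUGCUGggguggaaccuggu

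The 2 Mir3070 hairpins shared the 5p seed GCCCCUG and the 3p seed GGUGCUA. RefSeq gave mature sequences for 56 of the 58 miRNA rows, and these 104 sequences carried 96 different seeds. The seed AGGUCAC of miR-370-5p was shared with miR-1193-3p. The rows of these genes count RNA that covers the hairpin in polyA-selected libraries, so they report on long RNA and not on the mature miRNA. For hairpins opposite exons of Rtl1 that long RNA may be Rtl1 itself as well as the miRNA precursor.

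Before treatment the members spanned a wide range of levels per length. Meg3 stood at 23341, which placed it 41st from the top among the 16935 genes above 0. Rtl1 (1016), Mirg (987) and Rian (860) followed, and the R1 and R2 columns of Rtl1 (1084 and 948) and Mirg (1087 and 888) overlapped. Dlk1 stood at 64.8 and Dio3 at 4.54, so that only 19.5% of the genes above 0 were lower than Dio3. In the mm9 annotation the members run from Dlk1 (chr12:110691033-110701546) through Meg3 (chr12:110779211-110809936), Rtl1 (chr12:110827404-110838540, the only one on the minus strand), Rian (chr12:110842155-110899919) and Mirg (chr12:110973191-110987665) to Dio3 (chr12:111517278-111519307).

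**Figure D1:**
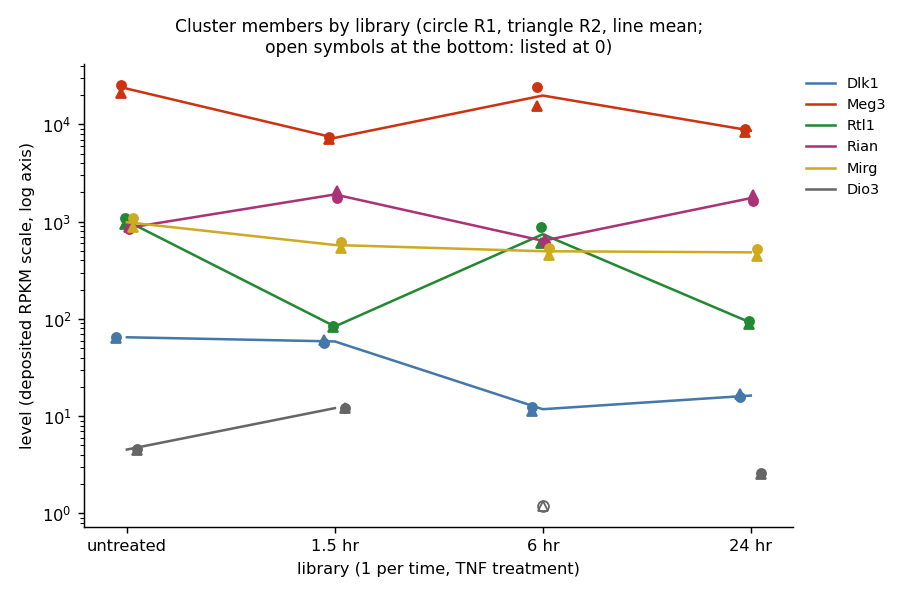
Level of each member in the 4 libraries, on the deposited RPKM scale with a log axis; circles are R1, triangles R2 and lines their mean. Meg3 and Rtl1 are low at 1.5 and 24 hr, Rian is high at those times, and Dio3 is listed at 0 at 6 hr.

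After TNFα the members did not move as a block. Meg3 and Rtl1 were low at 1.5 and 24 hr and close to the untreated level at 6 hr, Rian was high where they were low, Dlk1 was low at 6 and 24 hr, and Mirg was lower at all times by a similar amount as deposited, though after scaling it was close to the untreated level at 6 hr. Counting members at least 2-fold below the untreated library gave 2 at 1.5 hr (Meg3 and Rtl1), 2 at 6 hr (Dlk1, and Dio3 listed at 0) and 4 at 24 hr (Dlk1, Meg3, Rtl1 and Mirg). The share of all 6251 genes with a mean level above 100 that were at least 2-fold lower was 8.51%, 31.4% and 13.4% at these times. Without that filter, which Dlk1 and Dio3 did not pass, it was 19.3%, 40.6% and 24.0%. At least 2-fold higher were 2 members at 1.5 hr (Rian and Dio3), 0 at 6 hr and 1 at 24 hr (Rian), against 29.8%, 1.87% and 17.0% of genes past the filter. After median-of-ratios scaling between libraries, 3, 2 and 4 members were at least 2-fold lower, against 17.1%, 2.58% and 14.8% of genes past the filter, and 1, 0 and 0 were higher, against 16.9%, 8.61% and 15.7%. Nothing particular to the members can be read from 6 genes in single libraries.

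The deposited scale itself differed between libraries. The values summed over the table at 6 hr to 0.563 of the untreated sum, and the median log2 ratio of the genes past the filter was 0.43, -0.74 and 0.09 at 1.5, 6 and 24 hr. The median over the members was -0.46, -0.72 and -1.23 at these times. It therefore lay below that of all genes at 1.5 and 24 hr and near it at 6 hr, and with median-of-ratios scaling it became -0.87, 0.09 and -1.28. The log2 ratios below are as deposited, with the value after median-of-ratios scaling beside those of the members. That scaling subtracts 0.41, -0.81 and 0.05 from the log2 ratios at 1.5, 6 and 24 hr, so that for every gene named below a 6 hr value between -0.81 and 0 turns positive.

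**Figure D2:**
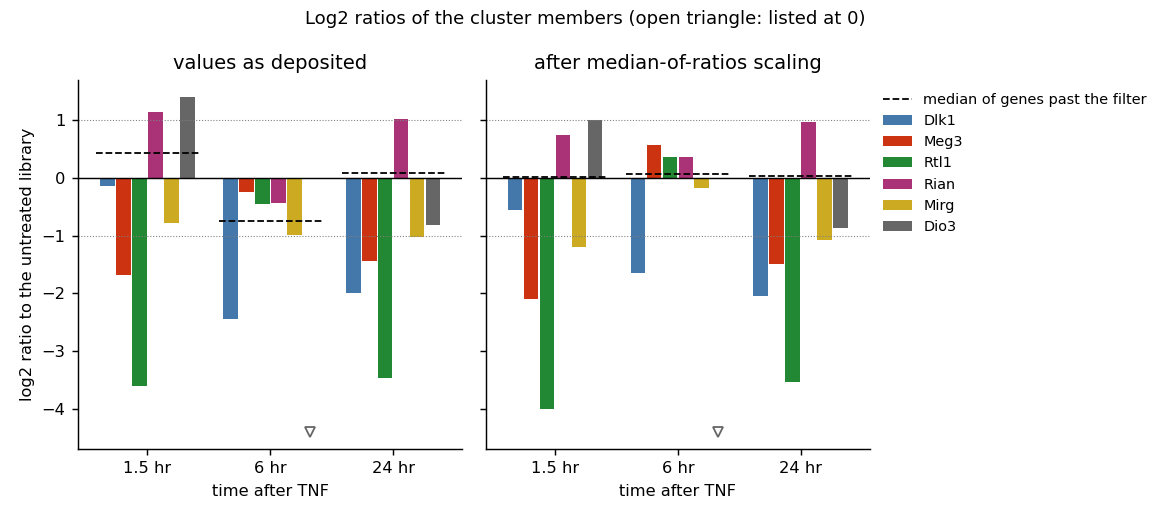
Log2 ratio of each member to the untreated library at 1.5, 6 and 24 hr, as deposited (left) and after median-of-ratios scaling (right); dashed lines are the median of the genes with a mean level above 100 and dotted lines mark 2-fold. Rtl1 lies lowest at 1.5 and 24 hr in both panels (-3.60 and -3.47 as deposited), and at 6 hr Meg3, Rtl1 and Rian change sign between the panels.

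Among the paternally expressed genes, Dlk1 stood at 64.8 before treatment and at 58.7, 11.8 and 16.3 after 1.5, 6 and 24 hr of TNFα. The first pair of libraries lay together and the later pair lay 5.48-fold and 3.97-fold below the untreated library. As log2 ratios these were -0.14 (-0.56 scaled), -2.45 (-1.64 scaled) and -1.99 (-2.04 scaled), so the lower level at 6 hr was smaller once the low 6 hr library was scaled. The 4 other Dlk1 rows gave log2 ratios between -2.45 and -2.40 at 6 hr and between -2.03 and -1.96 at 24 hr. They share most of their exons with the first row.

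Rtl1 stood at 1016 before treatment and at 83.7, 743 and 91.5 after 1.5, 6 and 24 hr. Its levels formed a high pair (untreated and 6 hr) and a low pair (1.5 and 24 hr), and no column of the low pair, with a highest value of 95.3, came near the lowest column of the high pair, 600. The level was 12.1-fold lower at 1.5 hr and 11.1-fold lower at 24 hr, with log2 ratios of -3.60 (-4.01 scaled) and -3.47 (-3.53 scaled). At 6 hr the log2 ratio was -0.45, and scaling turned it to 0.36.

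Rtl1 is overlapped on the opposite strand by a noncoding RNA, listed as 6430411K18Rik, from which miRNAs that target Rtl1 are made. It stood at 1388, 141, 823 and 153, which are log2 ratios of -3.30, -0.75 (0.06 scaled) and -3.18. Over the 4 libraries in order its level was 137%, 168%, 111% and 167% of that of Rtl1. The libraries keep strand, but whether the counting used it is not given in the sources used here. Mir136 and Mir3071 overlap on opposite strands within Rtl1. Their levels were nearly equal (51.3, 0, 71.3 and 6.68 against 52.9, 0, 67.8 and 6.41), so reads there seem to have been counted for both strands. Reads of Rtl1 and of its antisense partner thus cannot be told apart in these values.

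Dio3 was near the bottom of the table, at 4.54 before treatment and at 12.1, 0 and 2.59 after 1.5, 6 and 24 hr. The log2 ratio was 1.41 at 1.5 hr (1.00 scaled) and -0.81 at 24 hr (-0.86 scaled), and no ratio was formed at 6 hr, where it is listed at 0. The depth behind such low values is unknown. Dio3os, the noncoding RNA on the other strand beside Dio3, stood at 13.4, 1.43, 5.39 and 0.986, and so was lower at 1.5 hr, where Dio3 was higher.

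Among the maternally expressed RNAs, Meg3 stood at 23341 before treatment and at 7276, 19825 and 8649 after 1.5, 6 and 24 hr. Like Rtl1 it had a high pair and a low pair of libraries, and it was 3.21-fold lower at 1.5 hr and 2.7-fold lower at 24 hr. The log2 ratios were -1.68 (-2.09 scaled), -0.24 at 6 hr (0.57 scaled, so that the direction at 6 hr depends on the scaling) and -1.43 (-1.49 scaled). The R1 and R2 columns of the 6 hr library were far apart, at 24141 and 15509. The Meg3 rows NR_003633 (4728, 1178, 5072 and 1432) and NR_027651 (3958, 1174, 3400 and 1352) had the same high and low libraries at lower levels. NR_003633 was 4.02-fold lower at 1.5 hr and 3.3-fold lower at 24 hr, and NR_027651 was 3.37-fold and 2.93-fold lower.

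Rian went the other way. It stood at 860 before treatment and at 1906, 636 and 1747 after 1.5, 6 and 24 hr, with log2 ratios of 1.15 (0.74 scaled), -0.44 (0.37 scaled) and 1.02 (0.97 scaled). The ratios at 1.5 and 24 hr thus stayed above 0 but fell below 2-fold on scaling, and the direction at 6 hr turned. Ratios within a library do not depend on the scaling. Over the 4 libraries in order, the level of Rian was 3.68%, 26.2%, 3.21% and 20.2% of that of Meg3, and in R1 alone it was 3.28%, 23.8%, 2.5% and 18.1%. The level of Rtl1 was 118%, 4.39%, 117% and 5.24% of that of Rian.

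Mirg stood at 987 before treatment and at 576, 497 and 484 after 1.5, 6 and 24 hr. The columns at 6 hr (542 and 452) overlapped those at 1.5 hr (614 and 538) and at 24 hr (530 and 439), and all lay below the untreated columns of 1087 and 888. The log2 ratios were -0.78 (-1.19 scaled), -0.99 (-0.18 scaled) and -1.03 (-1.08 scaled), so the 6 hr value was near 0 after scaling. Mirg set the edge of the count above, being 1.99-fold lower at 6 hr, just outside the 2-fold limit, and 2.04-fold lower at 24 hr, just inside it.

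Both low times at least 2-fold below both high times (1.5 and 24 hr against untreated and 6 hr) was a pattern of Meg3 and Rtl1, and of 2.34% of the genes past the filter as deposited and 8.54% after scaling. The opposite pattern was that of Rian and of 14.2% of genes as deposited, and Rian no longer had it after scaling, when 0.656% of genes did. These shares are printed as background, since the pattern was noticed in these values.

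Some long nuclear RNAs encoded elsewhere had log2 ratios like those of Meg3. Malat1 gave -1.56, -0.57 and -1.72 and Neat1 gave -2.27, -0.11 and -2.30. Airn, the antisense RNA of the imprinted Igf2r domain, gave -1.34, -0.19 and -1.24. Neat1 and Airn fall outside the rule by which list genes were named. Other RNAs differed: of 14 nuclear or snoRNA-host RNAs past the filter 4 were at least 2-fold lower and 5 higher at 1.5 hr. The genes nearest to Meg3 by Euclidean distance over the 3 log2 ratios were Akap8l (0.10), Lrch4-sap25 (0.18) and Cchcr1 (0.18). Nearest to Rian were Rtn3 (0.04), Rexo2 (0.05) and Cast (0.07), and nearest to Rtl1, at the larger distances of 0.57, 1.01 and 1.15, were Kcp, Mll2 and Mirlet7e. These 3 searches were added after the values were seen. By the rule set for the members as a group, whose mean log2 ratios over the 5 genes above 0 in all libraries were -1.01, -0.91 and -1.38, the nearest were Pom121, Egln2, Ssbp4, Adcy7 and Dos, at distances of 0.09 to 0.11.

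The small RNA rows of the cluster were mostly low at 1.5 and 24 hr. Of the 59 rows above 0 in the untreated library, 51 (86.4%), 32 (54.2%) and 56 (94.9%) were at least 2-fold lower at 1.5, 6 and 24 hr. Among the 324 small RNA rows encoded elsewhere the shares were 52.5%, 59.0% and 55.6%. The median log2 ratio of the cluster rows was -2.33, -1.13 and -2.86, and that of the rows elsewhere was -1.11, -1.58 and -1.24. The rows elsewhere hold 93 snoRNA and scaRNA rows, of which 24.7%, 37.6% and 34.4% were lower, so hairpins were also set against hairpins. Of the 58 in the cluster 87.9%, 55.2% and 96.6% were at least 2-fold lower, with medians of -2.34, -1.16 and -2.87. Of the 231 elsewhere 63.6%, 67.5% and 64.1% were, with medians of -1.95, -2.01 and -1.97, so the gap in medians at 1.5 hr was smaller between hairpins than between all rows. After median-of-ratios scaling the count of cluster rows at 6 hr fell from 32 to 20, and the counts at 1.5 and 24 hr were 55 and 56. Of the 324 rows elsewhere 193, 146 and 185 were then at least 2-fold lower at 1.5, 6 and 24 hr. The counts take the mean of R1 and R2. With both columns at least 2-fold lower as deposited they were 40, 19 and 43 of the 59 cluster rows. Elsewhere they were 92, 94 and 97 of the 324.

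Most of these rows had low values, and neighbouring hairpins share precursors, so they are not independent. With a mean level above 100, 18 cluster rows were left, of which 15, 5 and 17 were at least 2-fold lower at 1.5, 6 and 24 hr. Of the 50 such rows elsewhere 13, 16 and 17 were. This filter takes in rows through their high libraries, and the counts are given as a description.

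**Figure D3:**
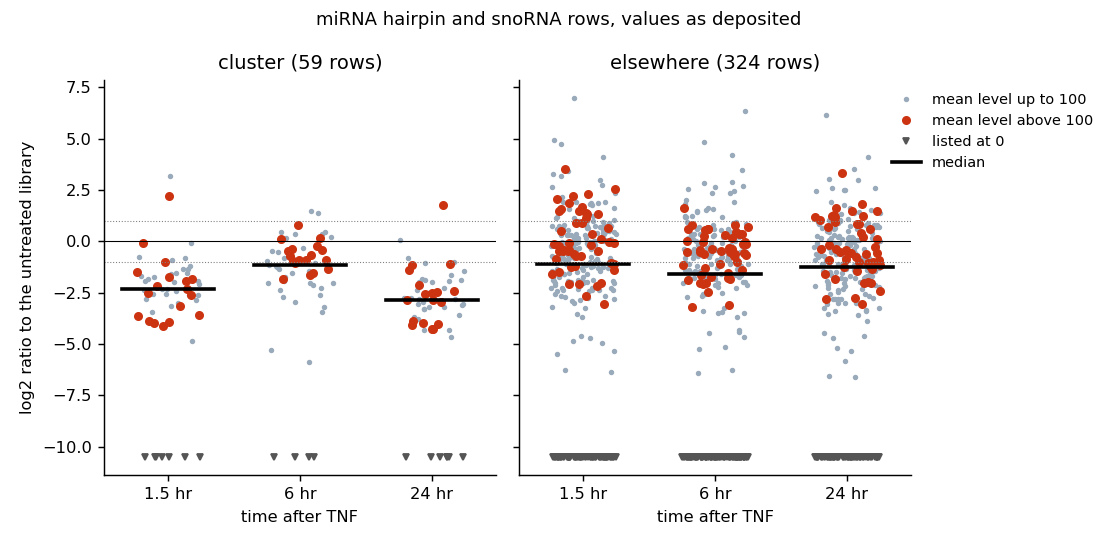
Log2 ratio to the untreated library, as deposited, of miRNA hairpin and snoRNA rows in the cluster (left, 59 rows) and elsewhere (right, 324 rows); red points have a mean level above 100, grey triangles at the bottom are listed at 0 and bars are medians. The cluster medians at the 3 times are -2.33, -1.13 and -2.86, and the red point above 0 at 1.5 and 24 hr is the snoRNA AF357359.

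By position, the 14 hairpins between Meg3 and Rian had median log2 ratios of -2.99, -0.91 and -2.99 and the 28 between Rian and Mirg -2.32, -1.70 and -2.63. The 10 within Mirg had -1.17, -0.92 and -2.67, and so were less low at 1.5 hr than at 24 hr. Placed on mm9, 6 hairpins lay opposite exons of Rtl1, and 5 of these were at least 2-fold lower at 1.5 hr and 6 at 24 hr. The exception at 1.5 hr was Mir434, with a mean level of 1.83 over the libraries.

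Mir433 (chr12:110829925-110830048), one of the hairpins opposite Rtl1, stood at 1116, 90, 543 and 152 in the 4 libraries, which was 12.4-fold lower at 1.5 hr and 7.32-fold lower at 24 hr. Mir127 (chr12:110831056-110831125), another, stood at 339, 19.5, 256 and 21.4, and was 17.4-fold and 15.8-fold lower at these times. Both had the high and low pairs of libraries seen for Rtl1, and both may count reads of Rtl1. Mir3070a (chr12:110826153-110826241) stood at 1023, 226, 547 and 236, and Mir3070b (chr12:110826802-110826890), of the same seeds, at 910, 180, 485 and 162. Both lie between Meg3 and Rtl1, in no member, and share a mature sequence, so reads may be split between them. Mir1906-1 (chr12:110782751-110782830) lies in an annotated exon of Meg3 and stood at 9003, 3233, 9926 and 4001, with the libraries in the order of the Meg3 row NR_003633. It has a near-identical copy, Mir1906-2, on the X chromosome. Both rows had the same mean level (6541) and log2 ratios, so they may count the same reads and their values are uncertain. Mir1906-2 was counted among the rows elsewhere.

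Rian and the small RNAs inside its span did not share a direction. Mir370 (chr12:110856468-110856546), in an intron of Rian on the same strand, stood at 582, 36.6, 369 and 29.8 in the 4 libraries, and so was 15.9-fold lower at 1.5 hr and 19.5-fold lower at 24 hr, where the spliced Rian row was higher. Mir1188 and Mir341, the other intronic hairpins of Rian, were 6.18-fold and 5.89-fold lower at 1.5 hr and 9.26-fold and 11.9-fold lower at 24 hr. The snoRNA AF357359 went with the Rian row at 1.5 and 24 hr, at 102, 471, 177 and 341, with log2 ratios of 2.21, 0.80 and 1.75. After scaling these were 1.80, 1.61 and 1.69, so it was then about as high at 6 hr as at the other times. Its columns at 6 hr differed, with deposited log2 ratios of 0.24 in R1 and 1.22 in R2. A second snoRNA of Rian, AF357355, was listed at 0 untreated and at 6 hr, and at 15.8 and 4.1 at 1.5 and 24 hr.

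**Figure D4:**
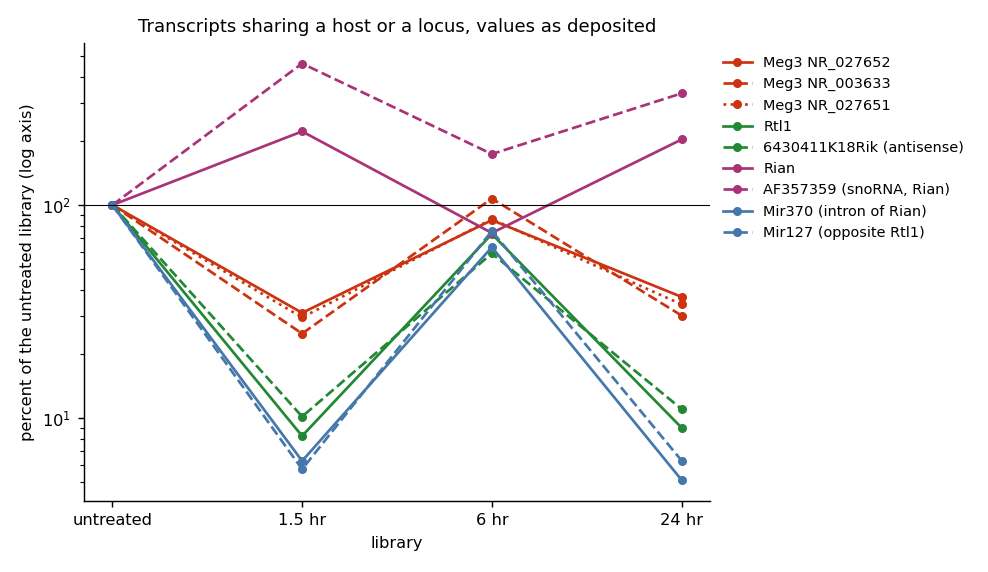
Level as a percent of the untreated library (log axis) for rows that share a host gene or a locus, mean of R1 and R2. Mir370, in an intron of Rian, was 15.9-fold lower at 1.5 hr where the Rian row was 2.22-fold higher and the snoRNA AF357359 4.64-fold higher. Rtl1, its antisense partner and Mir127 have like profiles and may share reads.

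H3K4me3 in untreated MEFs marked 1 of the 6 starts, that of Meg3. The peak (chr12:110777969-110781505, 3537 bp) held 942 tags at a fold enrichment of 34.75 over the input and an FDR of 0.03%, and its summit lay 236 bp after the Meg3 start. It covers the promoter sequence shown above. The peak was of ordinary size, with 42.6% of the 11157 peaks holding fewer tags and 28.7% having a lower fold enrichment. No other peak was called from 644 kb before it to 902 kb after it. Within 1 kb of the start a peak was found for 87.9% of the genes with a mean level above 100 and for 52.5% of the noncoding ones among them. The nearest peak was 86.9 kb from the start of Dlk1, 57 kb from Rtl1, 60.6 kb from Rian, 192 kb from Mirg and 167 kb from Dio3. Rtl1, Rian and Mirg thus had levels of 860 to 1016 in untreated MEFs with no called peak at the annotated start. The value of Rtl1 may include reads of its antisense partner. A peak at the start was found for 87.1% of genes at levels of 100 to 1000 and for 86.9% of those above 1000. A region under the caller's limits is not listed, and H3K4me3 after TNFα was not measured.

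**Figure D5:**
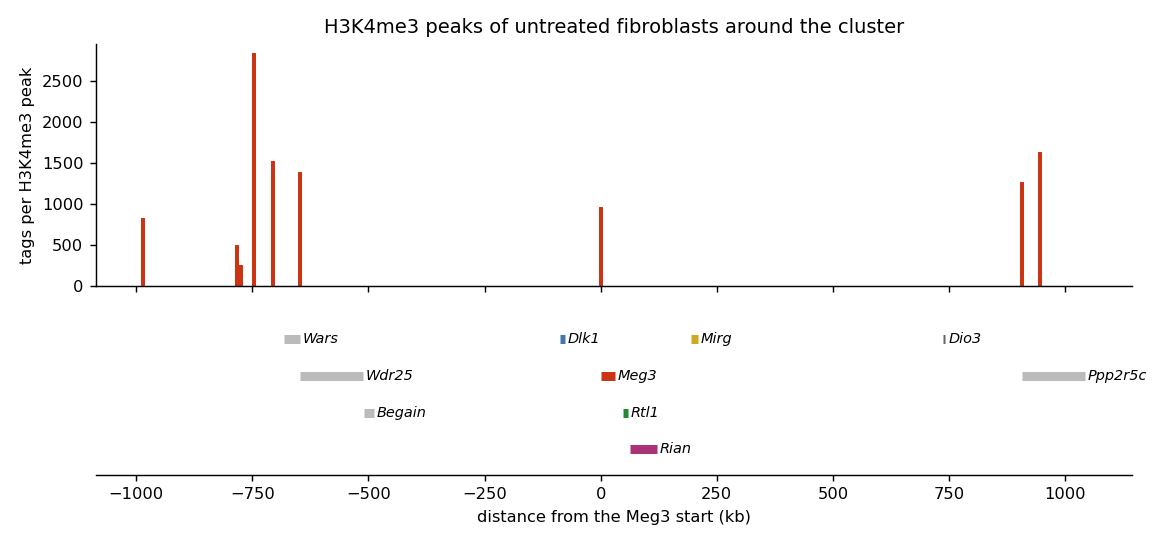
H3K4me3 peaks of untreated MEFs (tags per peak, drawn at the peak centre) and genes by distance from the Meg3 start in kb; genes under 4 kb are drawn 4 kb wide. Between the peak 644 kb before it and the peak 902 kb after it, the Meg3 peak with 942 tags is the only one.

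Of the 5 neighbours outside the cluster, Begain had high and low libraries like those of Meg3 and Rtl1. Wars, a tRNA synthetase gene, had log2 ratios of 0.59, -1.09 and -0.04, Wdr25 had -0.79, -1.54 and -0.92, Ppp2r5c, a phosphatase subunit, had 0.93, -0.80 and 0.66, and Dync1h1, the dynein heavy chain, had -0.07, -0.31 and -0.99. All 4 had a peak at the start. Begain, the nearest gene on the Dlk1 side, stood at 190, 60.5, 122 and 44.2 with log2 ratios of -1.65, -0.65 and -2.11, and its start was 158 kb from a peak.

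Imprinted genes elsewhere did not share 1 direction. Of the 21 past the filter, 1, 7 and 4 were at least 2-fold lower at 1.5, 6 and 24 hr and 7, 0 and 5 higher. Their medians were 0.67, -0.74 and 0.40. Of all genes past the filter 8.51%, 31.4% and 13.4% were lower and 29.8%, 1.87% and 17.0% higher, with medians of 0.43, -0.74 and 0.09. After scaling 2, 3 and 4 of the 21 were lower, against 17.1%, 2.58% and 14.8% of all genes. Higher after scaling were 6, 1 and 5, against 16.9%, 8.61% and 15.7%. H19, the maternally expressed noncoding RNA beside Igf2, had log2 ratios of -0.52, -2.24 and -2.00, low at 6 and 24 hr as Dlk1 was. Igf2, the paternally expressed growth factor of that domain, had 1.30, -0.87 and 0.60, and Gnas, which encodes a G protein subunit, had 2.47, 0.61 and 2.58. Cdkn1c, a cell cycle inhibitor, had -0.86, -2.15 and -1.59. Of the 10 regulators of imprinting and Polycomb past the filter 2, 3 and 2 were lower and 1, 0 and 0 higher, and after scaling 2, 0 and 2 were lower and 0 higher. Tet3, an enzyme that oxidises methylated cytosine, was lower at all times (-1.08, -1.29 and -1.64).

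Genes that work with the proteins of the cluster were read from lists. Beside their counts, 8.51%, 31.4% and 13.4% of all genes past the filter were at least 2-fold lower and 29.8%, 1.87% and 17.0% higher as deposited. After scaling 17.1%, 2.58% and 14.8% were lower and 16.9%, 8.61% and 15.7% higher. Of 9 Notch pathway genes past the filter 1, 5 and 2 were at least 2-fold lower and 2, 0 and 1 higher. After scaling 3, 0 and 3 were lower and 1, 1 and 1 higher, and the share of all genes lower at 6 hr was 31.4% as deposited and 2.58% after scaling. Hes1, a Notch target, had log2 ratios of -1.04, -0.50 and -0.97, Notch1 had -0.73, -1.57 and -1.90, and Rbpj, which encodes the DNA-binding partner of Notch, had 2.04, 0.39 and 1.48. Of 6 adipogenic genes 0 were lower (after scaling 0, 0 and 1) and 2, 0 and 1 were higher (after scaling 2, 1 and 1), among them Cebpb with 2.44, 0.63 and 1.76. Of 6 genes of thyroid hormone handling 0, 3 and 1 were lower (after scaling 2, 2 and 1) and 0, 0 and 1 higher, and Thra, a thyroid hormone receptor, had -0.47, -0.73 and -0.85. Of 3 gag-related relatives of Rtl1 1, 3 and 1 were lower (after scaling 1, 1 and 1), and Cxx1c had -1.18, -2.10 and -1.39. Cxx1a (-0.01, -1.73 and -0.32) and Cxx1b (0.03, -1.73 and -0.27) were close to the untreated level at 1.5 hr. Of 14 nuclear or snoRNA-host RNAs elsewhere 4, 2 and 4 were lower and 5, 1 and 4 higher (after scaling 4, 1 and 4 lower and 3, 3 and 4 higher). In that list the snoRNA host Snhg6 had 2.63, 0.83 and 1.90, while Malat1 and Neat1, named above, were lower at 1.5 and 24 hr.

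Of 18 genes listed for the TNFα response 17 passed the filter. Those at least 2-fold higher at 1.5, 6 and 24 hr were 17, 15 and 16 (after scaling 17, 17 and 15). Of all genes past the filter 29.8%, 1.87% and 17.0% were higher (after scaling 16.9%, 8.61% and 15.7%). Listed genes can pass the filter through their TNFα libraries, as Cxcl10 did (7.64 untreated, 762 at 1.5 hr), so the counts are a description. Nfkbia, the inhibitor of NF-κB, went from 319 to 7211 at 1.5 hr. The fibroblast label was checked on 11 markers, 10 of which passed the filter, and their summed level was 96026, 99819, 45204 and 60954. That sum mixes directions. Col1a1 was lower at all times (44002, 23778, 20213 and 12173), while Vim was higher at 1.5 and 24 hr (5166, 17325, 4776 and 14539). Of markers of other cell types, those of skeletal muscle summed to 2437, 6897, 1519 and 4307, with Myod1, Myf6 and Pax7 listed at 0 untreated. Most of that sum was Acta1 (2118, 6688, 1354 and 4134), while Des was lower at 1.5 hr (317 to 207). The markers of macrophages and blood summed to 1043, 1794, 513 and 919, and those of neural cells and glia to 1314, 911, 1099 and 616. In the macrophage and blood sum Cd14 was higher at all times (62.6, 515, 178 and 387). Cd68 (605, 823, 202 and 312) and Csf1r (295, 287, 90.1 and 124) were lower at 6 and 24 hr. The untreated sums for endothelium, epithelium, cartilage and endocrine cells were 4.73, 45.2, 108 and 8.39. The neural sum was lowest at 1.5 and 24 hr, as Meg3 and Rtl1 were, but most of it was Nes (nestin), at 1090, 605, 1028 and 445. Tubb3, the other neural marker past the filter, went the other way, at 93.3, 236, 30.3 and 146. The part of neural cells in the levels of Meg3 and Rtl1 was not tested. In these whole cultures fewer cells expressing a gene and less RNA per cell cannot be told apart.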

How the data were processed

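PolyA-selected, strand-keeping paired-end RNA libraries (Illumina Genome Analyzer II) of MEFs at 4 times, and 1 H3K4me3 ChIP and 1 input library, were analysed. RNA reads were aligned by the authors using TopHat (mm9), and a script of theirs turned them into one RPKM value per RefSeq transcript and column, R1 and R2 being the 2 columns deposited for each library. This RPKM has its own larger scale, and low values come in steps of about 1 covered base, so reads were not recovered and the depth behind a value is unknown. Columns were matched to times by the library names in the study's own depth list. Bowtie served to align the ChIP reads and MACS to call peaks, and the deposited list holds for every peak its count of tags, a score (the logarithm of its p-value), the FDR as a percent and the fold enrichment. A further deposited signal column, which equals tags divided by peak length, was not used.

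Values were the mean of R1 and R2, with no pseudocount, and log2 ratios were taken to the untreated library. With 1 library per time no test was made. A gene or row was called lower or higher at 2-fold, and shares of all genes were taken over those with a mean above 100. Small RNA types came from RefSeq by accession. Their place between Dlk1 and Dio3 came from the mm9 annotation (GENCODE vM1) by symbol for 49 rows and, for the 11 symbols it lacks, from the order of RefSeq genes, which was decided after the files were read. Hairpin and promoter sequences are RefSeq's (GRCm38), and mm9 positions come from exact matches on chromosome 12 or from the annotation. The wider lists were imprinted genes, imprint and Polycomb regulators, Notch, adipogenic and thyroid hormone genes, gag-related genes, noncoding RNAs, TNFα response genes and cell type markers. Named were all 6 members, the 4 miRNA and 2 snoRNA rows with the highest mean, 5 neighbours and the 5 genes nearest in log2 ratios. At most 4 genes per list were named (the highest untreated levels and the largest changes). There were exceptions, some of them said to be chosen after seeing values. The members and lists were chosen with earlier results of these data known. Other scalings (sum, median of ratios, and a mean trimmed by 30% of ratios and 5% of levels), pseudocounts of 10 and 100, single columns, filters and fold limits were alternatives. The scaling code was tested on simulated data. Python 3.11.15, numpy 2.4.6, pandas 2.3.3 and matplotlib 3.10.9 were used.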

Additional observations from a re-analysis of the deposited data

Results flagged for a closer look

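The entries here moved in opposite directions at different times in both columns of the libraries, at least 2-fold at 1 of the times. With 1 library per time these differences were not tested. Rian had log2 ratios of 1.15 and 1.02 at 1.5 and 24 hr against -0.44 at 6 hr, and scaling turned the 6 hr value to 0.37. The Meg3 row NR_003633 had -2.01 and -1.72 at 1.5 and 24 hr against 0.10 at 6 hr, while the highest Meg3 row was slightly lower at 6 hr as deposited. Dio3 had 1.41 at 1.5 hr against -0.81 at 24 hr and was listed at 0 at 6 hr, all at levels of 12.1 or less.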

How the results depend on the processing

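No paired analysis was possible because each time has 1 library and no test was made. Scaling between libraries moved the members' median log2 ratio at 1.5 and 6 hr more than the other alternatives did, and at 24 hr a pseudocount of 100 moved it more. At 1.5 hr it was -0.71, -0.87 and -0.85 with sum, median-of-ratios and trimmed-mean scaling (deposited -0.46), at 6 hr 0.15, 0.09 and 0.02 (deposited -0.72), and at 24 hr -1.16 and -1.28 with the first pair (deposited -1.23). All 9 changes of sign among single members' 51 scaled values were those of Meg3, Rtl1 and Rian at 6 hr, and single columns, pseudocounts and the mean over all rows changed no sign. The 6 hr count of small RNA rows of the cluster (deposited 32) was 19, 20 and 20 under these scalings. Among the 324 rows elsewhere it was 191 as deposited and 146 with median-of-ratios scaling.

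With R2 alone the medians were -0.41, -0.82 and -1.18. A pseudocount of 10 gave a 6 hr median of -0.49 and 1 member lower at 6 hr. A pseudocount of 100, which is above the levels of Dlk1 and Dio3, gave medians of -0.37, -0.39 and -0.70, 0 and 2 members lower at 6 and 24 hr, and 18, 4 and 20 small RNA rows. A 3-fold limit left 2 members at 24 hr. A mean level above 100 left 15, 5 and 17 small RNA rows, since fewer rows were counted. Peaks with a fold enrichment of at least 40 left 0 members, as the Meg3 peak has 34.75. Without the 6 hr library 4 members were lower at 1 or more times, against 5. Dio3 at 6 hr has no ratio as deposited and was left out of the values of single members. The medians and counts kept it, as the lowest member where no pseudocount was added.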
